A study of Mus musculus with 12 samples.

Results

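The comparison described here is the early response of liver without Pml to acetaminophen (APAP). The 2 arrays of Pml KO mice taken 2 h after APAP were set against the 2 arrays of untreated Pml KO mice, 4 of the 12 arrays of the study. All mice were females of strain BALB/cByJ, 2.5 months old, and all 4 arrays are labelled Pml KO. Treated mice had received 300 mg/kg APAP, dissolved in warmed PBS and injected intraperitoneally. Controls were untreated, and the sources used here give no vehicle injection for them. The other 8 arrays came from wt mice, untreated or 2 h or 6 h after the same dose, and from KO mice at 6 h, with 2 arrays in each group. The comparison covered 17052 genes that had a probe set with exactly 1 gene symbol and a mean log2 intensity of at least 5 over the 12 arrays. These genes stood for 19236 such probe sets, and the brightest probe set of each gene was used. The sources used here do not say which part of Pml the KO allele removes, nor whether the 2 arrays of a group came from separate mice or litters. The p-values therefore measure the spread between these samples, which may be partly technical.

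PML is the protein that builds PML nuclear bodies, small domains of the nucleus that hold SUMO-modified proteins and respond to interferon and to oxidative stress. APAP is cleared in hepatocytes mainly by glucuronidation and sulfation. A part is oxidised around the central vein to a reactive quinone imine that consumes glutathione and binds mitochondrial proteins, which activates JNK and stress-induced transcription. Early genes of such a response include the AP-1 and EGR transcription factors, heat shock chaperones and targets of the antioxidant factor NRF2.

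Pml itself checks the genotype labels. Its log2 intensity was 7.10 and 7.97 in untreated KO liver and 7.11 and 7.50 at 2 h in KO liver. In wt liver it was 8.18 and 8.46 untreated and 7.82 and 7.92 at 2 h. The array labelled untreated KO replicate 2, at 7.97, lay inside the wt values, whereas the other 3 KO arrays of the comparison lay below them. The platform has 1 Pml probe set, and whether it lies in the deleted part is not known from the sources used here. Because of that array, counts are given below both with it and without it, the remaining untreated KO array then being assumed to vary like the other groups. Between 2 h and untreated KO liver, Pml differed by -0.23 ± 0.24 (SE of the fit, adjusted p = 0.492), which turned to 0.21 without the array labelled untreated KO replicate 2. With untreated KO replicate 1 left out it was -0.66, past the threshold. Every ± below is such a standard error, each log2 difference compares the means of 2 arrays, and a log2 difference of 1 is a 2-fold change.

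In signal the 4 arrays fell into pairs. Over all tested genes the log2 values of the 2 untreated KO arrays correlated at 0.991 and those of the 2 KO arrays at 2 h at 0.985, against 0.947 to 0.95 between the groups. These are correlations across genes, which are not replicates. The median intensity of all probe sets was 86.2 and 87.3 in untreated KO liver and 82.3 and 83.6 at 2 h. Hepatocyte genes marked all 4 arrays as liver: the intensities of the 10 tested hepatocyte markers, Alb among them, summed to 63234 to 67478 in untreated KO liver and to 66695 to 67135 at 2 h. The number of arrays limits the precision.

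Of the 17052 genes, 5353 (31.4%) passed limma's test at an adjusted p under 0.05 at 2 h in KO liver, 1813 (10.6%) higher and 3540 (20.8%) lower. The 2 treated and 2 untreated arrays did not overlap for any of the 5353. The share of all 17052 genes without overlap was not counted, so this lack of overlap is no separate support for the calls. Most calls were small, with a median of 0.59 among the rises and -0.60 among the falls, and the split by size was uneven. At least 2-fold differences were called for 357 genes higher and 484 lower. At least 4-fold differences were called for 96 genes higher and 38 lower, and at least 16-fold for 21 higher and 0 lower. Without the array labelled untreated KO replicate 2 the test called 2935 genes, 981 higher and 1954 lower, and 2833 of the 5353 calls were kept. Without untreated KO replicate 1 it called 3372. The split between rises and falls depended on the scaling: 33.9% of calls were higher with the values as deposited, 44.6% after quantile normalization and 64.5% with each array centred on its median. Centring moved the median difference of all tested genes by 0.17, from -0.065 to 0.11. It called 3759 of them higher and 2068 lower. A list below is therefore best read against the median of all genes, and directions that turn with the scaling are marked. A list with at most 10.6% of its members higher, or at most 20.8% lower, does not exceed the share of all tested genes in that direction. The 10.6% and 20.8% hold for the main fit only. Fewer genes were called with any array left out, and more were called higher after either scaling. List counts in those settings are not to be set against these 2 shares.

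**Figure D1:**
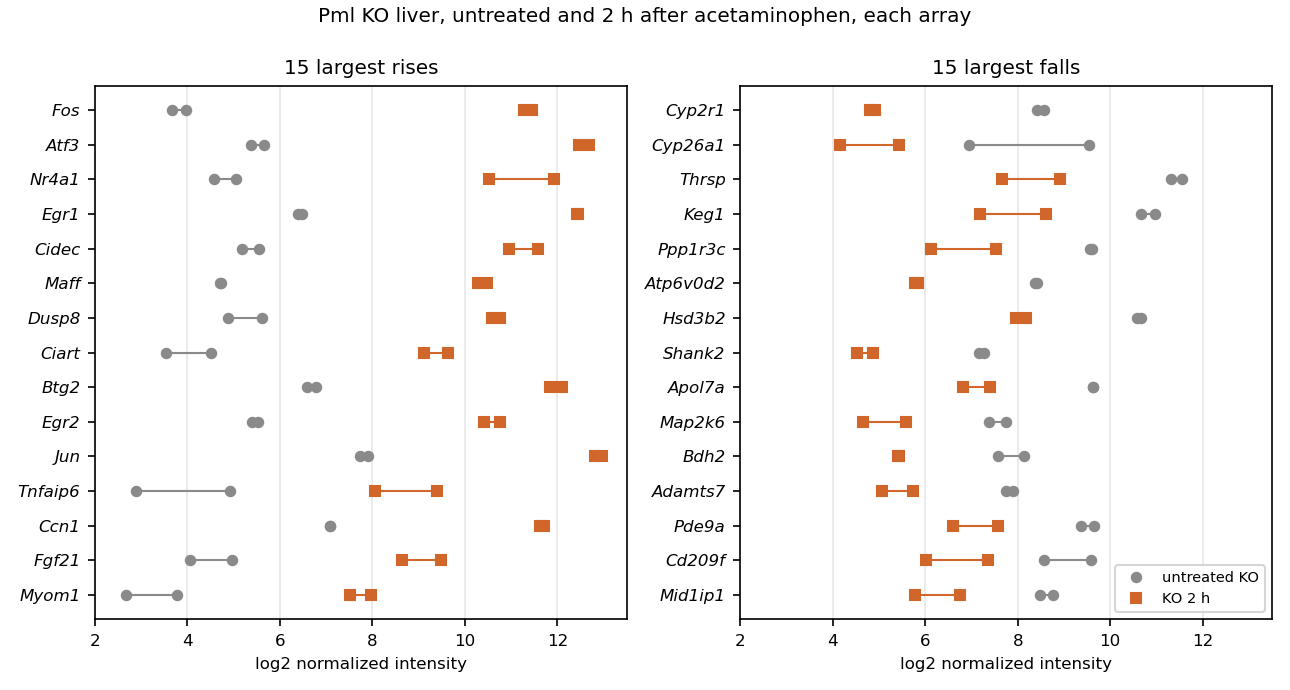
Log2 normalized intensity of the 15 largest rises (left) and 15 largest falls (right) among called genes of Pml KO liver at 2 h, 1 point per array (grey circles, untreated KO; orange squares, KO 2 h), with a line joining the 2 arrays of a group. Only genes without overlap between the groups were eligible. Fos rises from 3.98 and 3.67 to 11.29 and 11.45, and Cyp2r1 falls from 8.42 and 8.58 to 4.92 and 4.81.

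The 15 largest rises included the early transcription factors Fos, Atf3, Nr4a1, Egr1, Maff, Egr2 and Jun and the phosphatase Dusp8, and promoters of their gene lists were examined for the sites such factors bind. RefSeq promoters (assembly GRCm38.p6) were matched for 55 genes of the AP-1, EGR, NR4A and MAP kinase phosphatase lists. The 250 bases before the start were searched on both strands. The full cyclic AMP response element, TGACGTCA, bound by ATF and CREB factors and by JUN-ATF dimers, was found in 5 of the 55 (9.09%: Maff, Dusp8, Dusp1, Btg2 and Errfi1) and in 1.77% of all 27025 genes with a promoter. The CArG box, the serum response factor site, was found in 4 of the 55 (7.27%: Srf, Zfp36, Dusp5 and Egr2) and in 1.62% of all genes. All 9 of those genes were called higher. In these lists, in the order given above, 9 of 13, 16 of 24, 9 of 15 and 9 of 17 tested members were higher. Of all tested genes 10.6% were higher. The Dusp5 call ended without KO 2 h replicate 2 or either untreated KO array (adjusted p of 0.0877 to 0.195), and with a variance trend or the compared groups only (0.086 and 0.0602), and those of Dusp1 and Csrnp1 without untreated KO replicate 1 (0.0508 and 0.0534). The AP-1 site TGACTCA was found in 1 of the 55 (1.82%, Csrnp1) and in 5.16% of all genes. A match describes these letters only. The 150 bases before the start that hold the matches are shown for 3 genes with a cyclic AMP response element and 2 with a CArG box, with the motif in capitals; they lie at chr15:79347370-79347519 on the plus strand (Maff) and, on the minus strand, at chr7:142095285-142095434 (Dusp8), chr17:26508473-26508622 (Dusp1), chr17:46556163-46556312 (Srf) and chr7:28379229-28379378 (Zfp36).
Maff: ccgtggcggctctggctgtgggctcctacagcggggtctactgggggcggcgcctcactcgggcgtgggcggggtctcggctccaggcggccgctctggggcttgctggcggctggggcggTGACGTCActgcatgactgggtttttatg
Dusp8: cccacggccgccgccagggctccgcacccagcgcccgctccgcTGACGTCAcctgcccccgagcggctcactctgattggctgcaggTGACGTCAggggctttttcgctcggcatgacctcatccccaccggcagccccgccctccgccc
Dusp1: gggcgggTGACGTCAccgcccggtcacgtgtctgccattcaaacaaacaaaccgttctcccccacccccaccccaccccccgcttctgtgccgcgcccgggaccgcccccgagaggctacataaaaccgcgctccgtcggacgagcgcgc
Srf: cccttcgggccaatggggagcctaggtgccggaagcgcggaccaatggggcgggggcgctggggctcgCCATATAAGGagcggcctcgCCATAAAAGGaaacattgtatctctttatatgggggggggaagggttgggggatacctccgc
Zfp36: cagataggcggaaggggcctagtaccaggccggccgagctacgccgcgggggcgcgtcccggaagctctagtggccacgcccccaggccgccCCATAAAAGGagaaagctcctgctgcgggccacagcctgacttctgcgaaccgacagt

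AP-1 proteins, dimers of FOS, JUN and ATF members, and the small MAF proteins that pair with them or with NRF2 made up 13 tested genes, of which 9 rose and 1 fell, with a median log2 difference of 2.33. Without the array labelled untreated KO replicate 2 the counts were 8 and 1. Atf3, a repressor and activator induced by many stresses, measured 5.65 and 5.38 in untreated KO liver and 12.68 and 12.46 at 2 h. The groups stood far apart, at 7.06 ± 0.39 (adjusted p = 9.85e-06). Maff, the small MAF gene whose promoter is shown above, went from 4.73 and 4.71 to 10.47 and 10.29, a difference of 5.66 ± 0.63 (adjusted p = 0.000364). Jun, the central JNK substrate, measured 7.74 and 7.90 untreated and 12.96 and 12.81 at 2 h, and Junb measured 6.66 and 6.30 and 10.29 and 10.73. All 4 genes were called in wt liver as well. Fosb, a FOS paralog, was the member least alike between arrays: it stood at 6.09 and 6.04 in untreated KO liver and at 6.60 and 8.96 at 2 h, so that most of its difference of 1.72 ± 0.57 (adjusted p = 0.0421) came from KO 2 h replicate 2. The Fosb call ended without that array (adjusted p = 0.217), without untreated KO replicate 1 (0.119) or the array labelled replicate 2 (0.143), with a replicate block (0.0512), a variance trend (0.102) or the compared groups only (0.114). Maf, a large MAF protein without the stress induction of the small ones, fell by 0.77 ± 0.12 (adjusted p = 0.00153). The other 3 did not pass, Mafg and Batf at 0.25 and 0.15. Mafg was called higher after median centring (adjusted p = 0.0485 by limma).

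In the EGR, IER, MYC and serum response group, immediate targets of growth factor and stress kinases, 16 of 24 tested genes rose and 0 fell (median 1.62), and 15 rose without the array labelled untreated KO replicate 2. Btg2, an antiproliferative protein, measured 6.59 and 6.77 untreated and 11.84 and 12.11 at 2 h. The gap of 5.29 ± 0.39 exceeded the spread within either group by far (adjusted p = 4.55e-05). Ccn1, a matricellular protein, stood at 7.08 and 7.08 untreated and at 11.71 and 11.63 at 2 h. Srf, the serum response factor, and Zfp36, which destabilises inflammatory mRNAs, both carry the CArG boxes shown above. Srf rose by 1.72 ± 0.30 (adjusted p = 0.00245) from 7.59 and 7.38 to 8.71 and 9.70, and Zfp36 rose by 2.74 ± 0.29 (adjusted p = 0.000263). Other rises were those of Ier2 (3.82), Rhob, a small GTPase (1.98), Ier3 (2.77), Ccn2 (2.27) and Pim3, a survival kinase (1.53). The other 8 did not pass, among them Arc, a gene of active synapses, at 0.40.

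Among NR4A receptors and KLF factors, 9 of 15 rose and 2 fell (7 and 2 without the array labelled untreated KO replicate 2). The falls were 1 with any other single array left out and after either scaling. Nr4a1, an orphan nuclear receptor made within minutes of a stimulus, measured 5.05 and 4.57 untreated and 10.52 and 11.92 at 2 h. Its rise of 6.41 ± 0.64 (adjusted p = 0.000202) was followed by a level at 6 h that differed from the same untreated arrays by 1.18 (adjusted p = 0.18). Klf6, a zinc finger factor, rose by 4.37 ± 0.52 and Nr4a3 by 3.36 ± 0.42 (adjusted p = 0.000473 and 0.000536). Klf12 fell by 1.29 ± 0.23 (adjusted p = 0.00248).

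MAP kinase phosphatases and Sprouty-type inhibitors shut down the kinases that switch early genes on, and 9 of 17 rose and 1 fell. Only 5 rose without either untreated KO array, the one labelled replicate 2 or replicate 1. Dusp8, a phosphatase of JNK and p38 with 2 cyclic AMP response elements in the promoter shown, measured 5.61 and 4.88 untreated and 10.77 and 10.59 at 2 h. It differed by 5.43 ± 0.58 (adjusted p = 0.000293). Dusp1, the nuclear phosphatase of the same kinases, varied more between the controls, with 9.57 and 10.81 untreated and 12.51 and 12.65 at 2 h, a difference of 2.38 ± 0.51 (adjusted p = 0.00618). Dusp16, which acts on JNK, rose by 1.42 ± 0.25, and the ERK phosphatase Dusp6 by 1.21. Spry2, an inhibitor of receptor tyrosine kinase signalling, was the member that fell, by 0.55 ± 0.17 (adjusted p = 0.0307). Besides Dusp5, given above, calls that ended without 1 array were those of Dusp6 without either KO 2 h array (adjusted p = 0.0893 and 0.0532) or the array labelled untreated KO replicate 2 (0.144), of Dusp1 without untreated KO replicate 1 (0.0508), and of Spry2 without KO 2 h replicate 1 (0.195) or either untreated KO array (0.0716 and 0.151). The Spry2 call also ended after median centring (0.092) and in the compared groups only (0.0514).

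Of the growth arrest genes of the p53 list, 9 of 27 were higher and 4 lower. These shares were 33.3% and 14.8%, beside 10.6% and 20.8% of all tested genes. The falls were 1 without the array labelled untreated KO replicate 2 and 2 with KO 2 h replicate 1 left out, and the rises were 5 without untreated KO replicate 1. Cdkn1a, the p21 inhibitor of cyclin-dependent kinases, measured 6.96 and 8.74 untreated and 11.36 and 11.33 at 2 h. The untreated arrays stood well apart, yet both lay below both treated ones, at a difference of 3.50 ± 0.65 (adjusted p = 0.00338). Gadd45b, an activator of stress kinase cascades, rose by 4.09 ± 0.35, the kinase Plk3 by 3.40 ± 0.39, and Mdm2, the ubiquitin ligase of p53, by 1.32 ± 0.23. Gadd45g did not pass at 0.97 ± 0.34 (adjusted p = 0.0531); in wt liver it rose by 4.48, and the difference between the genotypes also missed the threshold (adjusted p = 0.0508). Gadd45g was called without KO 2 h replicate 2 (adjusted p = 0.0324) or the array labelled untreated KO replicate 2 (0.0169), and after either scaling. Fas, a death receptor, and Ccng1, a cyclin-like p53 target, fell by 0.85 and 0.63, Fas not without the array labelled untreated KO replicate 2 (adjusted p = 0.0558). In the list of BCL2 family members and death receptors, 6 of 23 rose and 3 fell, 1 without the array labelled untreated KO replicate 2. Tnfrsf12a, the TWEAK receptor, rose by 3.10 ± 0.18 and Bcl2l11, the killer protein BIM, by 1.98 ± 0.14.

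**Figure D2:**
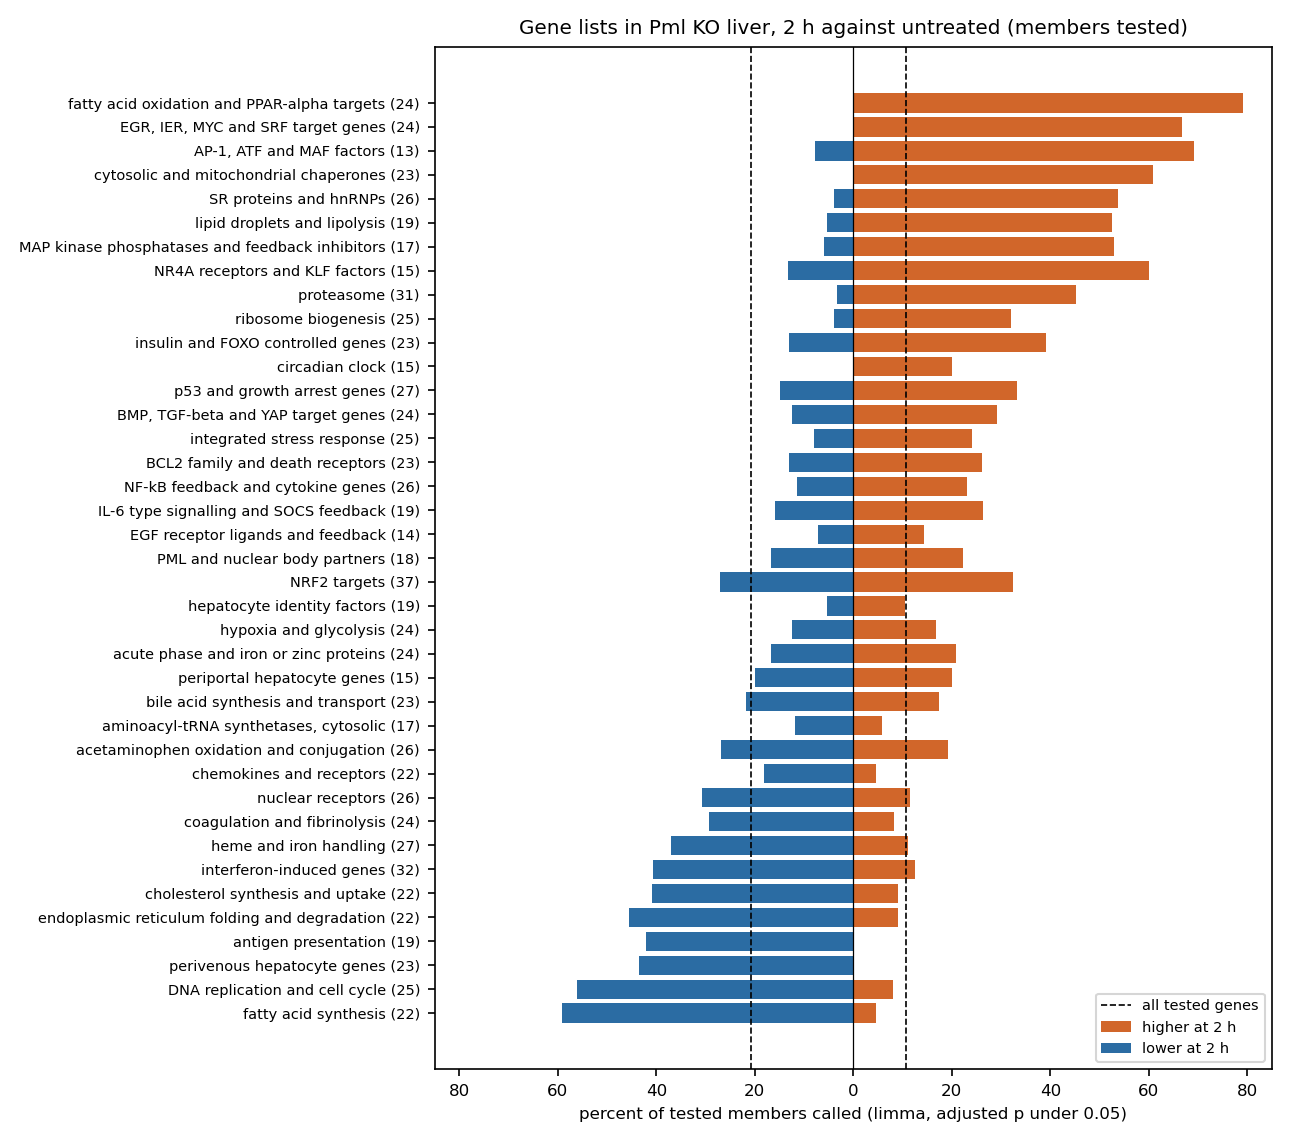
Percent of the tested members of each of 39 gene lists called higher (orange, right) or lower (blue, left) in Pml KO liver at 2 h against untreated KO, with the number tested in brackets. Dashed lines mark all tested genes, 10.6% higher and 20.8% lower; fatty acid oxidation and the early transcription factors stand at the top and fatty acid synthesis and DNA replication at the bottom.

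Folding factors split by compartment. Of 23 tested cytosolic and mitochondrial chaperones and cochaperones, 14 rose and 0 fell, with a median of 0.68, and 13 rose without the array labelled untreated KO replicate 2, while 1 fell without KO 2 h replicate 1. In wt liver 5 of the same genes were called higher, with a median of 0.31, and the lowest adjusted p for a difference between the genotypes in this list was 0.13. In that limma test 9 of the 23 had an unadjusted p under 0.05, beside 2606 of all 17052 genes. Dnajb1, the HSP40 partner of HSP70, measured 8.27 and 7.39 untreated and 12.49 and 12.18 at 2 h, a difference of 4.51 ± 0.44 (adjusted p = 0.000172). Bag3, a cochaperone that steers misfolded proteins to autophagy, went from 8.01 and 7.02 to 11.50 and 10.27, and its difference was 3.37 ± 0.58 (adjusted p = 0.0023). Its arrays varied by more than 1 within each group but did not overlap. Among mitochondrial members, Hspd1 and Hspe1, which encode the HSP60 barrel and its HSP10 lid, measured 11.78 and 11.83 and 11.51 and 11.58 untreated and 12.68 and 12.30 and 12.32 and 12.06 at 2 h. They rose by 0.68 ± 0.14 and 0.64 ± 0.12 (adjusted p = 0.00438 and 0.00361), and they share one divergent promoter. A heat shock element, taken as 3 alternating units GAA, TTC and GAA, or TTC, GAA and TTC, each 2 bases apart, was found in the promoters of 3 of 19 genes of this list (15.8%: Hspd1, Hspe1 and Dnajb6) and in 0.514% of all genes. The Hspd1 and Hspe1 matches are 1 stretch of their shared promoter read on opposite strands, counted for both genes. Dnajb6 itself did not pass, at 0.08. The 150 bases before the Hspe1 start, at chr1:55087998-55088147 on the plus strand of GRCm38.p6, hold the element in capitals.
Hspe1: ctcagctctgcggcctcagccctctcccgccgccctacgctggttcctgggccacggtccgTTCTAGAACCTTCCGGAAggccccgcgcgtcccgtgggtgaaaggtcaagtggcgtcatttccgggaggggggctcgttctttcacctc

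In the endoplasmic reticulum the direction was the opposite: 10 of 22 folding and degradation genes fell and 2 rose (median -0.37). Only 4 fell without the array labelled untreated KO replicate 2, and 4 with KO 2 h replicate 2 left out. Sdf2l1, a cochaperone of BIP, measured 9.79 and 10.09 untreated and 8.95 and 6.93 at 2 h. Manf, a secreted stress protein, measured 9.77 and 10.00 and 9.08 and 8.14. Both treated arrays lay below both controls, though KO 2 h replicate 2 lay far lower than replicate 1. Sdf2l1 fell by 2.00 ± 0.58 and Manf by 1.28 ± 0.31 (adjusted p = 0.0254 and 0.0109). Pdia6, a disulfide isomerase, fell by 1.31 and Hyou1 and Dnajb11, chaperones of the lumen, by 1.15 and 1.13. Hspa5, which encodes BIP, did not pass, at 0.06. The 2 members that rose were Herpud1, of the degradation machinery (0.79 ± 0.11), and Dnajb9 (0.92 ± 0.20). Without the array labelled untreated KO replicate 2 the calls of Sdf2l1, Manf, Hyou1 and Dnajb9 ended (adjusted p of 0.0609 to 0.119). Without KO 2 h replicate 2 those of Sdf2l1, Manf and Hyou1 ended (0.0601 to 0.168), and without untreated KO replicate 1 that of Sdf2l1 (0.0708). The Sdf2l1 call also ended with a variance trend (0.0755) and in the compared groups only (0.0541).

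The integrated stress response, which runs through phosphorylated eIF2 and ATF4, counted 6 of 25 genes higher and 2 lower, and 5 and 1 without the array labelled untreated KO replicate 2. The falls were 0 without untreated KO replicate 1 and after median centring, and 1 without KO 2 h replicate 2 and after quantile normalization. Fgf21, the stress-induced liver hormone, measured 4.96 and 4.05 untreated and 8.63 and 9.49 at 2 h, and rose by 4.56 ± 0.56 (adjusted p = 0.000524). Atf4 rose by 1.47 ± 0.15, Ppp1r15a, which brings the phosphatase to eIF2, by 2.49 ± 0.40, and Trib3, a pseudokinase, by 1.45 ± 0.27 (adjusted p = 0.000226, 0.00168 and 0.00307). Of the amino acid genes of the list, Asns and Slc7a11 did not pass, at 0.71 and 0.41, whereas Shmt2 was 1 of the 2 falls, at -0.39. The list had 24% of its members higher and 8% lower, beside 10.6% and 20.8% of all genes. For the cytosolic aminoacyl-tRNA synthetases the shares were 5.88% and 11.8%, both under those of all genes. Of 17 cytosolic aminoacyl-tRNA synthetases 1 rose (Sars, 0.84 ± 0.14) and 2 fell, but 4 fell without KO 2 h replicate 1, 1 with any other single array left out and 1 after either scaling, and 2 rose after median centring.

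Genes for the detoxification of electrophiles did not move as one. Of 37 NRF2 targets 12 rose and 10 fell, a share of each direction above that of all genes, with a median of 0.01. Without the array labelled untreated KO replicate 2 the counts were 8 and 7, and 5 fell without untreated KO replicate 1, 6 without KO 2 h replicate 1 and 5 after median centring. Srxn1, sulfiredoxin, measured 8.17 and 8.26 untreated and 10.74 and 11.47 at 2 h, and rose by 2.89 ± 0.21 (adjusted p = 4.4e-05). Txnrd1, thioredoxin reductase, measured 9.19 and 9.08 and 10.62 and 10.76, a rise of 1.56 ± 0.13 (adjusted p = 8.14e-05). Sqstm1, an autophagy receptor that binds KEAP1, rose by 1.32 ± 0.09. The members that fell were largely glutathione S-transferases (Gsta3, Gsta4, Gstm1, Gstm2, Gstm3 and Gstm4, from -1.19 to -0.44) and pentose phosphate enzymes (Tkt, Taldo1 and Pgd, from -0.83 to -0.59). The transferase genes of a class are near-identical, and their probe sets may not tell them apart. Nqo1, the quinone reductase, fell by 0.85 ± 0.26 at 2 h (adjusted p = 0.0309); at 6 h it stood 1.39 above the same untreated arrays (adjusted p = 0.00233). The Nqo1 call at 2 h ended without KO 2 h replicate 1 (adjusted p = 0.162), with untreated KO replicate 1 left out (0.181) and after median centring (0.0646). The Gsta3 call ended after median centring (0.0608). Those of Gstm1, Gstm3 and Gstm4 ended without untreated KO replicate 1 (0.111 to 0.192), KO 2 h replicate 1 (0.118 to 0.254) or the array labelled untreated KO replicate 2 (0.0566 to 0.0579) and after median centring (0.0736 to 0.117), that of Gstm3 also on the mean of its probe sets (0.149), those of Gstm1 and Gstm4 in the compared groups only (0.0659 and 0.093), that of Gstm4 after quantile normalization (0.0508) or with a variance trend (0.0547), and that of Pgd without untreated KO replicate 1 (0.0779).

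Genes that handle APAP itself were counted at 5 higher and 7 lower of 26, with a median of -0.15 that turned to 0.03 after median centring. The counts were 2 and 3 without untreated KO replicate 1, 3 and 4 without the array labelled untreated KO replicate 2, and, with KO 2 h replicate 1 or 2 left out, 3 and 4 or 3 and 6, and 3 fell after median centring. Cyp2e1, the main oxidising enzyme, did not pass (0.15 ± 0.09), nor did Cyp1a2 (-0.33). Papss1, which makes the sulfate donor, measured 7.15 and 7.29 untreated and 6.28 and 5.73 at 2 h and fell by 1.22 ± 0.20 (adjusted p = 0.00168). On the glucuronide side, Ugp2 and Ugt2a3 fell by 0.71 and 0.73, while Ugdh, which makes UDP-glucuronic acid, rose by 0.68. The Ugp2 call ended without KO 2 h replicate 1 or untreated KO replicate 1 (adjusted p = 0.0737 and 0.0601), and Cyp2e1 was called higher after median centring (0.0218). Metallothioneins, which bind zinc and quench radicals, rose in both forms: Mt1 went from 9.07 and 9.23 to 12.31 and 12.48, a difference of 3.25 ± 0.11 (adjusted p = 4.92e-07), and Mt2 from 9.16 and 10.85 to 13.14 and 13.15. Slc30a1, the zinc exporter, rose by 1.41 ± 0.18, whereas the acute phase proteins of the same list mostly did not pass (5 of 24 members of the list rose and 4 fell, 2 without KO 2 h replicate 1 or untreated KO replicate 1 and after median centring), among them Crp (-0.22), Orm1 (-0.20) and Serpina3n (0.07).

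Lipid genes moved in opposite blocks. Fatty acid synthesis, under SREBP-1 and ChREBP, had 13 of 22 members lower and 1 higher (median -0.77), with 12 lower without the array labelled untreated KO replicate 2. Thrsp, the SPOT14 regulator of lipogenesis, measured 11.32 and 11.55 untreated and 8.91 and 7.66 at 2 h and fell by 3.15 ± 0.51 (adjusted p = 0.00167). Mid1ip1, its paralog, which promotes acetyl-CoA carboxylase assembly, measured 8.75 and 8.49 and 6.76 and 5.77. Srebf1, which encodes SREBP-1, went from 10.05 and 10.15 to 8.09 and 7.59, a difference of -2.26 ± 0.17 (adjusted p = 4.55e-05). The enzymes from citrate onward fell with them: Acly differed by -2.28, Acaca by -1.33, Fasn by -1.84, Elovl6 by -2.21 and Scd1 by -0.91. Lpin1, a phosphatidate phosphatase that also acts as a coactivator of fatty acid oxidation, was the 1 member that rose, from 8.52 and 9.35 to 11.56 and 10.35, beside 2 rises without KO 2 h replicate 1 and 3 after median centring. Fatty acid oxidation genes and targets of PPAR-alpha rose in 19 of 24 cases with 0 falls (median 0.70), 16 without the array labelled untreated KO replicate 2. Pdk4, the kinase that blocks pyruvate dehydrogenase, measured 8.73 and 8.97 untreated and 12.43 and 10.90 at 2 h. Vnn1, a pantetheinase and PPAR-alpha target, measured 8.81 and 9.59 and 11.95 and 11.95. Both rose, by 2.81 ± 0.51 and 2.75 ± 0.28 (adjusted p = 0.00291 and 0.000237). Core enzymes of the spiral rose less, among them Cpt1a (0.82), Acadm (0.59), Hadhb (0.63) and Acadl (0.53).

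Lipid droplet and lipolysis genes were called higher in 10 of 19 cases and lower in 1 (8 and 1 without the array labelled untreated KO replicate 2). Cidec, a protein that fuses lipid droplets, had the fifth largest rise of all named genes. Its values were 5.56 and 5.18 untreated and 10.95 and 11.59 at 2 h, a difference of 5.90 ± 0.28 (adjusted p = 3.2e-06) beside 6.20 in wt liver. Hilpda, which inhibits the lipase ATGL, measured 5.32 and 5.44 and 7.13 and 8.33, and Pnpla2, which encodes ATGL, rose by 2.01 ± 0.16. The droplet coat genes Plin2, Plin4 and Plin5 rose by 1.53, 2.21 and 1.78. Lpl, lipoprotein lipase, fell from 7.16 and 7.27 to 6.03 and 5.91 (-1.24 ± 0.42, adjusted p = 0.0445), a call that ended without any 1 of the 4 arrays (adjusted p of 0.112 to 0.158), with a replicate block (0.0557), a variance trend (0.0853) or an offset of 16 (0.057) and after either scaling (0.0531 and 0.0704). Of the insulin and FOXO controlled genes 9 of 23 rose and 3 fell, 6 and 3 without the array labelled untreated KO replicate 2 and 6 and 1 without untreated KO replicate 1. Igfbp1, a binding protein of insulin-like growth factors that insulin represses, measured 9.0 and 9.02 untreated and 11.47 and 11.64 at 2 h. Foxo3, a factor that insulin keeps out of the nucleus, measured 8.16 and 8.12 and 10.44 and 10.08. Both lay well above their controls, at 2.54 ± 0.24 and 2.12 ± 0.33 (adjusted p = 0.000157 and 0.00136). Trib1, a pseudokinase adaptor, rose by 3.12 ± 0.36.

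Cholesterol synthesis was less even than fatty acid synthesis. Of 22 genes 9 fell and 2 rose, but 3 fell without the array labelled untreated KO replicate 2, 5 without KO 2 h replicate 2 and 6 after either scaling, and 1 rose without untreated KO replicate 1. The falls included Sc5d, Mvk, Dhcr7 and Fdps, at -1.30, -1.14, -1.14 and -1.27. The Fdps call ended without the array labelled untreated KO replicate 2 or KO 2 h replicate 2 (adjusted p = 0.104 and 0.102). Several enzymes of the same route did not pass and lay near 0: Idi1 measured 10.30 and 11.06 untreated and 10.91 and 10.28 at 2 h, and Cyp51 measured 8.92 and 9.70 and 9.64 and 9.17. For both, the groups overlapped. Msmo1, a sterol oxidase, differed by 0.01. In wt liver 16 of the 22 were called lower, Idi1 at -1.51, Cyp51 at -1.42 and Msmo1 at -1.38. In limma 0 of the 22 passed the test of the difference between the genotypes, the lowest adjusted p being 0.164, and 7 had an unadjusted p under 0.05 beside 2606 of all 17052 genes.

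**Figure D3:**
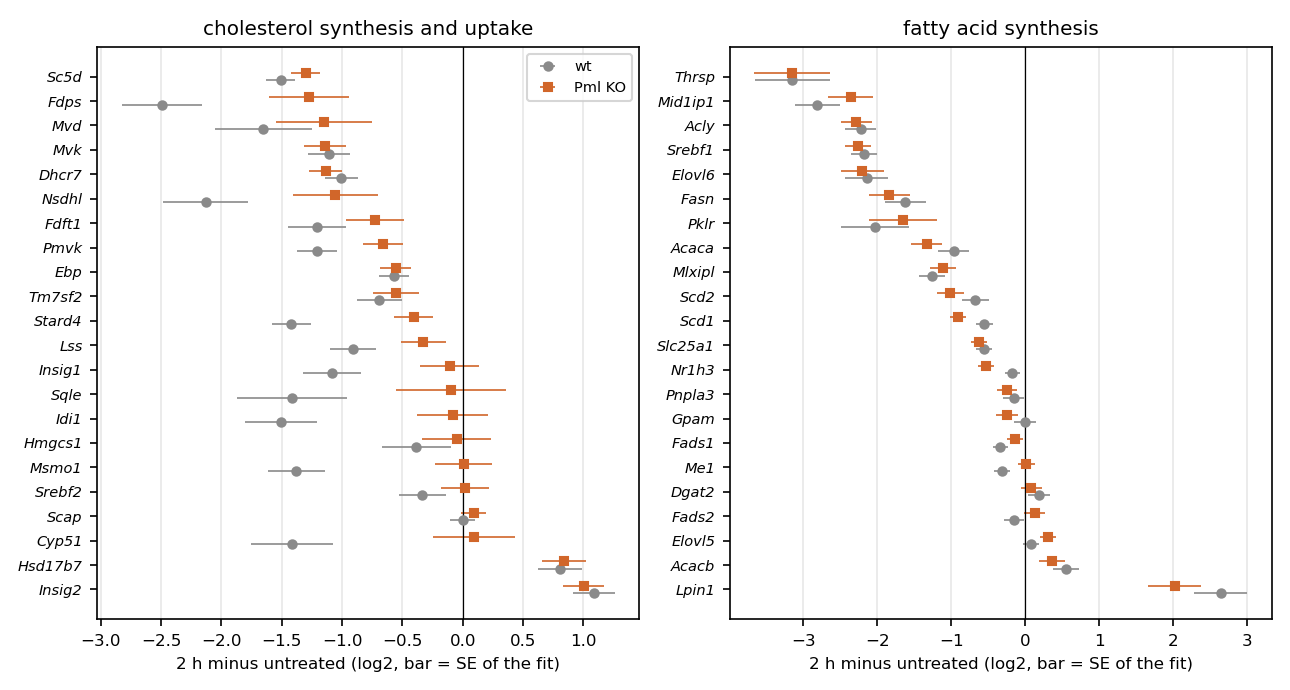
Log2 difference, 2 h minus untreated, of every tested gene of cholesterol synthesis and uptake (left) and fatty acid synthesis (right) in Pml KO liver (orange squares) and wt liver (grey circles), with the standard error of the fit as bars. Thrsp stands near -3.15 in both genotypes, whereas Idi1 lies at -0.08 in KO and -1.51 in wt liver, a difference that did not pass its own test.

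Hepatocyte functions of the perivenous zone, where APAP is oxidised, had 10 of 23 genes lower and 0 higher (median -0.33), with 7 lower without the array labelled untreated KO replicate 2, 5 without KO 2 h replicate 1 and 6 without untreated KO replicate 1, and with 2 higher after median centring. Lgr5, a receptor for R-spondins and target of Wnt signalling, measured 7.92 and 7.64 untreated and 4.91 and 6.12 at 2 h, a difference of -2.26 ± 0.38 (adjusted p = 0.00194). In wt liver Lgr5 differed by -0.39, and the difference between genotypes did not pass (adjusted p = 0.206). The Wnt feedback genes Rnf43, Nkd1 and Notum fell by 0.79, 0.73 and 0.73. The Notum call is that of its brighter probe set, at a mean log2 of 7.71. Its dimmer one, at 6.1, fell by 0.576 when limma tested each probe set (adjusted p = 0.00448). The calls of Rnf43 and Notum ended without untreated KO replicate 1 (adjusted p = 0.171 and 0.064) or KO 2 h replicate 1 (0.2 and 0.254) and after either scaling (0.0653 to 0.0781), and that of Notum without the array labelled untreated KO replicate 2 (0.191) or in the compared groups only (0.093). Axin2 and Sp5, general Wnt targets, did not pass, at 0.31 and 0.29. Slc1a4, an amino acid transporter, fell by 1.72 ± 0.22, and Ahr, the dioxin receptor, from 9.75 and 9.48 to 8.52 and 8.46. Of the periportal genes 20% were called higher and 20% lower, beside 10.6% and 20.8% of all genes. Periportal genes counted 3 higher and 3 lower of 15, and none of those counts held under all settings: the rises were 1 without KO 2 h replicate 2 or the array labelled untreated KO replicate 2 and 7 after median centring, and the falls were 1 without untreated KO replicate 1 and after median centring.

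Bile acid genes counted 4 of 23 higher and 5 lower (17.4% and 21.7%, the falls near the 20.8% of all genes), around a median of -0.13 that turned to 0.04 after median centring. The rises were 2 without KO 2 h replicate 2 or untreated KO replicate 1, and 3 without the array labelled untreated KO replicate 2. Cyp7a1, the rate-limiting enzyme of bile acid synthesis, measured 11.68 and 11.29 untreated and 8.70 and 10.65 at 2 h, so that its difference of -1.81 ± 0.51 (adjusted p = 0.0219) rested mostly on KO 2 h replicate 1. The call ended without that array (adjusted p = 0.123), without untreated KO replicate 1 (0.106) and without the array labelled untreated KO replicate 2 (0.0624). With all arrays kept it ended with a variance trend (0.0673) and in the compared groups only (0.0654). Akr1d1, a reductase of the same pathway, fell by 1.50 ± 0.23, and Abcb11, the bile salt export pump, by 0.83 ± 0.12. Abcb4, the phospholipid flippase of bile, and Cyp8b1 rose by 0.90 and 0.81. Factors of hepatocyte identity mostly did not pass: Hnf4a, Cebpa and Prox1 differed by 0.28, -0.23 and -0.24, Hnf4a being called higher after median centring (adjusted p = 0.0219). Of the 19 tested, Nr5a2 fell by 0.59, and the 2 that rose were Cebpb and Cebpd, both also stress-induced, at 1.59 ± 0.24 and 2.09 ± 0.38. In this list 4 fell without KO 2 h replicate 1, and 6 rose after median centring.

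Of the interferon-induced genes, a class in which Pml belongs, 13 of 32 fell and 4 rose (median -0.45). Without the array labelled untreated KO replicate 2 the counts were 12 and 2, and without untreated KO replicate 1, 7 fell. Gbp2, a guanylate-binding protein, fell by 1.31 ± 0.22, the RNA sensor Ddx58 by 0.99 ± 0.13 and Ifih1, a sensor of long double-stranded RNA, by 0.61 ± 0.13. Irf9, which joins the STAT factors of interferon signalling, rose by 0.71 ± 0.12, and Ifit1 and Isg15 did not pass (-0.54 and 0.18). For antigen presentation 8 of 19 fell and 0 rose, and 8 fell without the array labelled untreated KO replicate 2. The falls were of the peptide supply, namely the immunoproteasome subunits Psmb8, Psmb9 and Psmb10, its activators Psme1 and Psme2, the transporter part Tap2, Tapbp and the trimming peptidase Erap1. Psmb10 measured 9.25 and 8.77 untreated and 7.50 and 7.01 at 2 h, a difference of -1.75 ± 0.22 (adjusted p = 0.000593). In wt liver 4 of the 19 antigen presentation genes were called lower, at a median of -0.39 beside -0.205 in KO liver. The MHC genes themselves did not pass, B2m, the light chain of class I, at 0.05 and H2-Aa of class II at 0.21, the latter called higher without KO 2 h replicate 1 (adjusted p = 0.0421). Psme1 was not called without KO 2 h replicate 1 or untreated KO replicate 1 (adjusted p = 0.0765 and 0.0876), nor Psmb9 without untreated KO replicate 1 (0.054), nor Psme1 in the compared groups only (0.0522). The constitutive proteasome moved the other way, 14 of 31 higher and 1 lower (median 0.27). Its rises were 10 without the array labelled untreated KO replicate 2, 7 without untreated KO replicate 1, 9 without KO 2 h replicate 2 and 24 after median centring, and its 1 fall was lost without untreated KO replicate 1 and after median centring. Psmd12, a subunit of the regulatory cap, went from 9.70 and 9.73 to 10.43 and 10.40, and Psmd11, Psmd4 and Psma5 rose by 0.70, 0.69 and 0.61. The catalytic subunits Psmb5, Psmb6 and Psmb7, which the immunoproteasome subunits replace, did not pass, at -0.07, -0.07 and 0.06, and the first 2 stood at 0.108 and 0.106 after median centring.

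Cytokine signalling was selective. In the NF-kB list 6 of 26 rose and 3 fell, with 10 rises after median centring, 6 rises and 2 falls without KO 2 h replicate 1, and 4 and 1 without the array labelled untreated KO replicate 2. Nfkbiz, an inducible nuclear cofactor, rose by 2.36 ± 0.28 and Il1r1, the interleukin 1 receptor, from 9.10 and 9.25 to 11.06 and 10.20. Il6 did not pass, at 0.19. Among chemokines and their receptors 1 of 22 rose and 4 fell, Cxcl12 by 1.12 ± 0.11. The falls were 18.2% of the list beside 20.8% of all genes, and the rises were 3 without KO 2 h replicate 1 and 2 after either scaling. Cxcl2, a neutrophil attractant, was low in 3 arrays and high in 1, with 2.75 and 3.01 untreated and 4.01 and 8.63 at 2 h, and did not pass (adjusted p = 0.134), except without KO 2 h replicate 1 (0.0362). In the IL-6 type list 5 of 19 rose and 3 fell. The rises were 3 without the array labelled untreated KO replicate 2, without KO 2 h replicate 1 or untreated KO replicate 1, and 9 after median centring. Socs3, the feedback inhibitor of STAT3 signalling, measured 6.30 and 6.59 untreated and 8.99 and 8.65 at 2 h. That was a rise of 2.37 ± 0.21 (adjusted p = 0.000123). A second Socs3 probe set, at a mean log2 of 7.04 beside 7.37, rose by 0.40. Osmr, the oncostatin M receptor, rose by 0.99 ± 0.13.

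DNA replication and cell cycle genes, few of which are active in the resting liver, fell in 14 of 25 cases and rose in 2 (median -0.51), 12 and 1 without the array labelled untreated KO replicate 2. With either KO 2 h array left out 1 rose. In wt liver 2 of the 25 were called lower, and the lowest adjusted p for a difference between genotypes was 0.118. In that limma test 10 of the 25 had an unadjusted p under 0.05, beside 2606 of all 17052 genes. Gins1, a subunit of the replicative helicase complex, measured 6.59 and 6.75 untreated and 5.34 and 4.96 at 2 h, a fall of 1.52 ± 0.20 (adjusted p = 0.000715). The helicase loaders and subunits Cdt1, Mcm2, Mcm3 and Mcm7 fell by 0.70, 1.01, 0.73 and 0.60, and E2f1, which drives them, fell by 0.87. Pcna and Ccnd1 did not pass (-0.21 and -0.49), and Cdc45, a helicase component, rose by 0.51. Of ribosome biogenesis genes 8 of 25 rose and 1 fell, but 2 rose without the array labelled untreated KO replicate 2 and 2 with KO 2 h replicate 1 left out. The 1 fall was called without untreated KO replicate 1 and not with any other array left out or after either scaling. Nop58 and Gnl3, nucleolar proteins, rose by 1.51 ± 0.32 and 1.34 ± 0.26. Splicing factors of the SR and hnRNP families had 14 of 26 members higher and 1 lower (median 0.34), with 9 higher without the array labelled untreated KO replicate 2 and 8 with KO 2 h replicate 1 left out, and no fall without KO 2 h replicate 2 or the array labelled untreated KO replicate 2 or after median centring. Srsf3 measured 9.64 and 10.20 untreated and 11.56 and 11.43 at 2 h, and Clk1, a kinase that phosphorylates SR proteins, 9.64 and 9.87 and 11.23 and 11.08. They rose by 1.57 ± 0.17 and 1.39 ± 0.15 (adjusted p = 0.000336 and 0.00028). Another bright Srsf3 probe set rose by 1.575, and a dimmer one, at a mean log2 of 7.40, differed by -0.086 and did not pass.

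The 15 largest falls were smaller than the 15 largest rises and included Thrsp and Mid1ip1 of fatty acid synthesis, described above. Cyp26a1, which degrades retinoic acid, followed Cyp2r1, the vitamin D hydroxylase, as the second largest named fall. It measured 9.55 and 6.95 untreated and 5.43 and 4.16 at 2 h, and its difference of -3.46 ± 0.65 (adjusted p = 0.00342) stood beside a wide gap between its own untreated arrays. Ppp1r3c, which brings protein phosphatase to glycogen, measured 9.61 and 9.56 and 7.53 and 6.13, and Keg1 10.96 and 10.67 and 8.61 and 7.18. Every treated array of these genes lay below every control, which the rule for naming the 15 largest falls required. Ppp1r3c fell by 2.75 ± 0.70 and Keg1 fell by 2.92 ± 0.53 (adjusted p = 0.0142 and 0.00304). The Ppp1r3c call ended without either untreated KO array (adjusted p = 0.0612 and 0.0635) or KO 2 h replicate 2 (0.0942), and with a variance trend (0.0514). Map2k6, the kinase that activates p38, went from 7.38 and 7.75 to 5.59 and 4.65 (-2.45 ± 0.38, adjusted p = 0.00147). Pde9a, a cyclic GMP phosphodiesterase, and Adamts7, a secreted metalloprotease, fell, at -2.42 ± 0.29 and -2.43 ± 0.23. Atp6v0d2 of the vacuolar proton pump, Shank2, a scaffold protein, Apol7a, Bdh2, a dehydrogenase, and the lectin Cd209f fell, between -2.60 (Atp6v0d2) and -2.40 (Cd209f). Apol7a and Cd209f belong to clusters of similar genes, whose probe sets may not tell them apart. On the rising side, Tnfaip6, a hyaluronan-binding protein, measured 4.91 and 2.89 untreated and 9.39 and 8.05 at 2 h, and Ciart, a repressor of the circadian clock, 4.51 and 3.53 and 9.12 and 9.62. Myom1, a muscle M-band protein, rose from 2.66 and 3.76 to 7.96 and 7.52. These 3 and Fos, Maff and Fgf21 lay under a log2 of 5 in both untreated arrays, and the size of such differences depends on the offset added before taking log2. With 16 added they were 3.74 for Tnfaip6, 4.37 for Ciart, 3.16 for Myom1, 6.46 for Fos, 4.99 for Maff and 3.82 for Fgf21.

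Markers of other cell types were counted against the 20.8% of all genes called lower and 10.6% called higher. Of 16 tested Kupffer cell and macrophage markers 4 fell (Adgre1, Timd4, Csf1r and Mpeg1, 25%, the last 3 at -0.79, -0.61 and -0.86) and 1 rose, a call lost with each array left out in turn. The falls were 2 without untreated KO replicate 1, Csf1r and Mpeg1 being lost (adjusted p = 0.0649 and 0.085). The Csf1r call also ended without KO 2 h replicate 2 (0.0558) and the Mpeg1 call without KO 2 h replicate 1 (0.06). Their summed intensity was 8772 to 10175 in untreated KO liver and 6918 to 7700 at 2 h. Of 12 sinusoidal endothelial markers 5 fell (41.7%), led by Tek and Kdr (-0.85 and -0.79), 2 after median centring, 2 without KO 2 h replicate 2 or the array labelled untreated KO replicate 2 and 3 without either other array, and the sums were 10356 to 11179 and 8707 to 8997. Of 12 stellate cell and fibroblast markers 3 fell (25%), Col3a1 by 0.82 ± 0.17, and 1 rose, a call kept with KO 2 h replicate 1 left out and lost with any of the other 3, with 1 fall without the array labelled untreated KO replicate 2, where Col3a1 was not called (adjusted p = 0.0544). In limma 0 of 14 neutrophil markers were called and 1 had an unadjusted p under 0.05, S100a9 differing by 0.38. Without KO 2 h replicate 1, 3 neutrophil markers were called higher, without KO 2 h replicate 2, 1 was called lower, and after median centring 2 were called higher. Of 13 lymphocyte markers 2 fell, or 1 with any array other than KO 2 h replicate 1 left out. In limma 0 of 5 bile duct and 0 of 4 erythroid markers were called, with 0 and 1 at an unadjusted p under 0.05, and 1 erythroid marker was lower without KO 2 h replicate 2 and after quantile normalization. Of pancreas markers 1 of 5 was lower, of fat markers 2 of 7 higher and of muscle markers 1 of 10 higher and 1 lower. These moved by 0.52 at most, and their counts moved between 0 and 2 when 1 array was left out. Fewer cells of a type and less RNA per cell cannot be told apart in whole liver, and the part of these markers in the interferon and antigen presentation falls was not tested.

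The same 2 h step in wt liver shares no array with the KO step. There 2166 genes (12.7%) were called. Of the 5353 KO calls 1602 (29.9%) were called in the same direction in wt liver, 74% of the wt calls, and 7 were called in opposite directions, and 90.4% had the same sign. Over all tested genes the differences in the 2 genotypes correlated at 0.777, across genes that are not replicates. The test of the difference between the genotypes called 5 genes (0.0293%), 2 more positive and 3 more negative in KO liver, with 2606 genes at an unadjusted p under 0.05. Its count ranged widely when 1 array was left out. It was 11 without untreated KO replicate 1, 3 without the array labelled untreated KO replicate 2, 3 without KO 2 h replicate 1, 33 without KO 2 h replicate 2, 3 without untreated wt replicate 1 and 2 without wt 2 h replicate 2. For genes outside those 5, a call in one genotype and not in the other was not shown to be a difference between them. Several lists had like counts in wt liver, where 17 of 24 fatty acid oxidation genes were higher. Of 22 fatty acid synthesis genes 12 were lower there and 1 higher. In wt liver 11 of 19 lipid droplet and 15 of 31 proteasome genes were higher. Of 22 endoplasmic reticulum genes 8 were lower there and 2 higher. In limma's test of the difference 0, 2, 4, 1 and 0 members of these lists, in that order, had an unadjusted p under 0.05.

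**Figure D4:**
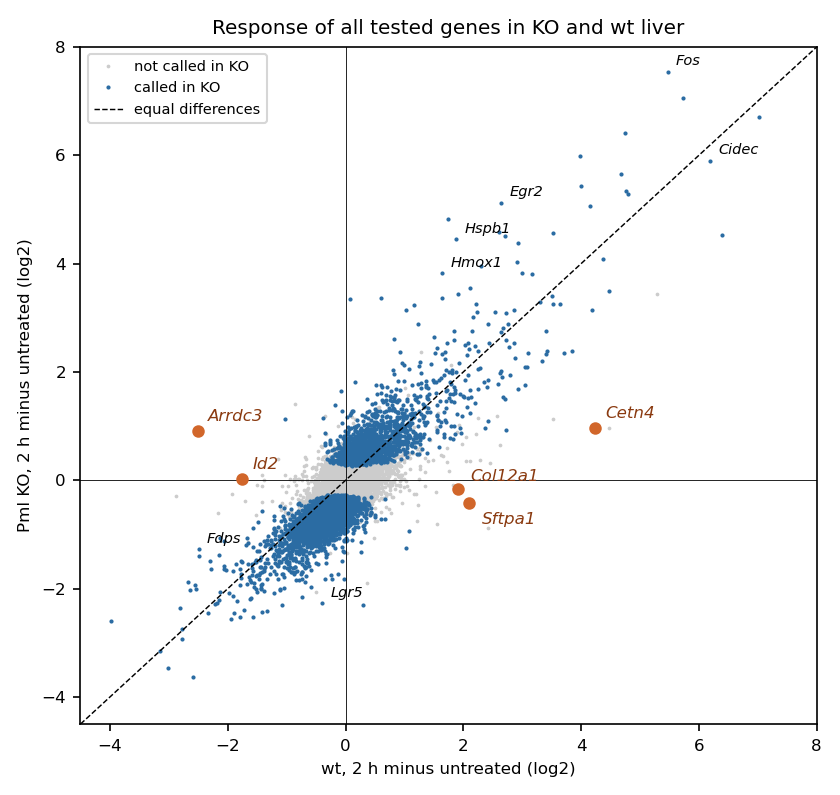
Log2 difference at 2 h in Pml KO liver (vertical) against wt liver (horizontal) for 17052 tested genes, blue where called in KO liver and grey where not, with the line of equal differences dashed. The 5 genes whose difference between genotypes passed the test are in orange; Arrdc3 lies at 0.91 in KO and -2.51 in wt liver, and Cetn4 at 0.96 and 4.23.

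Arrdc3, an alpha-arrestin that takes part in receptor traffic, moved in opposite directions. It measured 9.52 and 9.77 in untreated KO liver and 10.90 and 10.20 at 2 h, against 11.21 and 11.22 and 8.77 and 8.65 in wt liver. KO arrays rose and wt arrays fell, with a difference between the steps of 3.41 ± 0.33 (adjusted p = 0.00501). Arrdc3 in KO liver alone differed by 0.91 ± 0.23 (adjusted p = 0.0147). Its untreated KO level already lay below the wt level, by 1.58 on the log2 scale. Id2, an inhibitor of helix-loop-helix factors, did not pass in KO liver (0.02 ± 0.16), where it measured 11.58 and 11.65 and 11.88 and 11.38. In wt liver it went from 12.15 and 11.90 to 10.25 and 10.29. Its relatives Id1 and Id3 rose in KO liver by 1.15 ± 0.33 and 1.14 ± 0.31 (adjusted p = 0.0243 and 0.0195) beside -0.38 and -1.03 in wt liver, but their difference between genotypes did not pass (adjusted p = 0.22 and 0.131). Without KO 2 h replicate 1 or untreated KO replicate 1 neither Id1 nor Id3 was called in KO liver (adjusted p of 0.111 to 0.145), nor Id1 without the array labelled untreated KO replicate 2 (0.0668), nor Arrdc3 without KO 2 h replicate 1 (0.104) or untreated KO replicate 1 (0.0881). The test of the difference was lost for Arrdc3 without wt 2 h replicate 2 (adjusted p = 0.0622). For Id2 it was lost without any 1 of the 8 arrays other than KO 2 h replicate 2 (0.0626 to 0.196), with a replicate block (0.0659) and with a mean log2 of at least 7 (0.0768). The Id1 call in KO liver ended in the compared groups only (0.0713). Cetn4, a centrin of basal bodies, measured 4.48 and 4.42 untreated and 5.20 and 5.62 at 2 h in KO liver, a difference of 0.96 ± 0.17 (adjusted p = 0.00233). In wt liver it reached 8.93 and 9.02 from 4.64 and 4.85. These are values of the brighter of its 2 probe sets, at a mean log2 of 6.02. In the other, at 5.82, Cetn4 differed by 0.14 in KO and 0.64 in wt liver (adjusted p = 0.446 and 0.0129), and the difference between genotypes was -0.50 and did not pass (adjusted p = 0.269). On the mean of both it was -1.88 ± 0.19 (adjusted p = 0.00908). Col12a1, a fibril-associated collagen, and Sftpa1, surfactant protein A, rose in wt liver by 1.91 and 2.10 and differed by -0.17 ± 0.13 and -0.42 ± 0.20 in KO liver (adjusted p = 0.358 and 0.138). Adjusted p for the difference between genotypes was 0.0369 for Id2, 0.00089 for Cetn4, 0.00393 for Col12a1 and 0.0167 for Sftpa1. For Sftpa1 the test was lost without KO 2 h replicate 1 (0.0779), the array labelled untreated KO replicate 2 (0.0989), untreated wt replicate 1 (0.126) or either wt 2 h array (0.117 for both). Partners of PML in nuclear bodies showed no common movement: 4 of 18 rose and 3 fell, but 0 and 1 without the array labelled untreated KO replicate 2 and 1 and 1 with KO 2 h replicate 1 left out, 2 and 2 without untreated KO replicate 1, and 6 and 0 after median centring. Sp100, a core component, did not pass (-0.39).

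**Figure D5:**
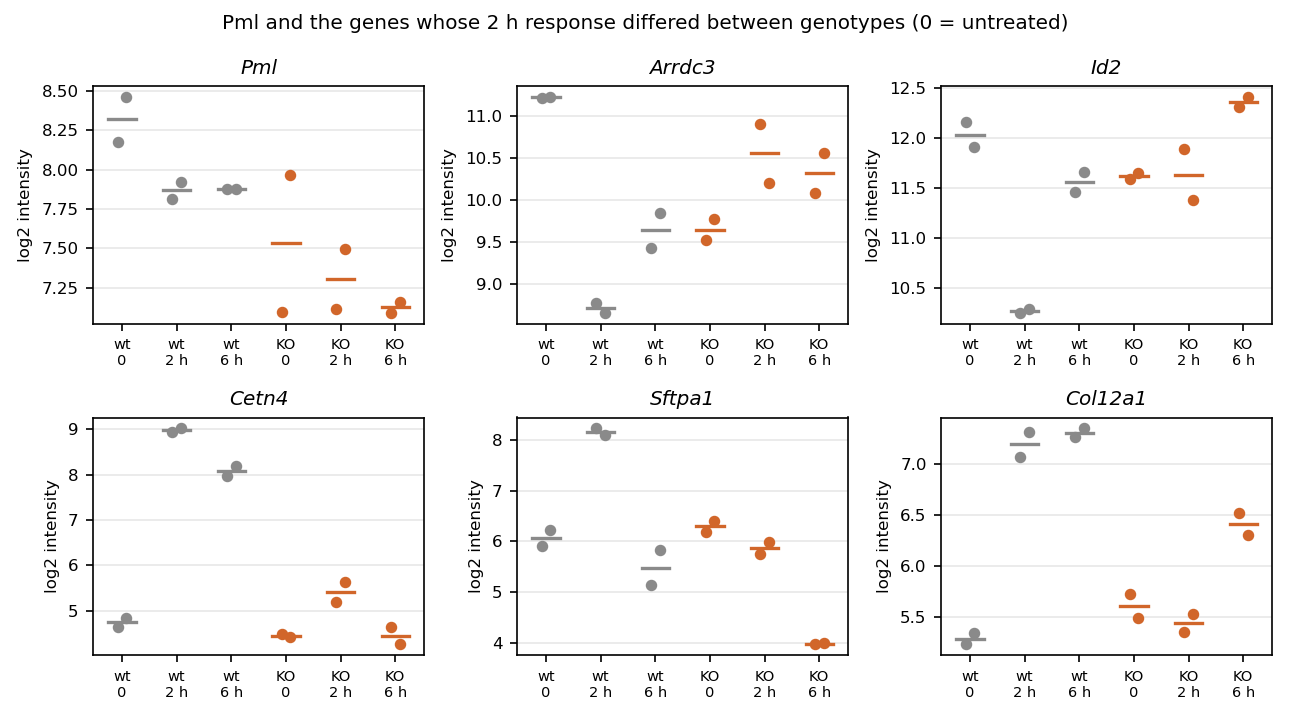
Log2 normalized intensity of Pml and of the 5 genes whose 2 h step differed between genotypes, 1 point per array and a bar at the mean of each group, wt in grey and KO in orange, untreated (0), 2 h and 6 h. Pml in untreated KO liver stands at 7.10 and 7.97; Cetn4 reaches 8.93 and 9.02 in wt liver at 2 h and 5.20 and 5.62 in KO liver.

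KO liver at 6 h was set against the same untreated KO arrays, so its values are given beside those at 2 h without a test of likeness. Some early genes were back near the untreated level: Dusp1 differed by -0.14 and Fosb by -0.09, with adjusted p of 0.862 and 0.92. Others were still far above it, Atf3 by 6.37 and Dnajb1 by 3.92. Srxn1 stood 4.38 above it at 6 h beside 2.89 at 2 h, and Hspe1 1.06 beside 0.64. In the other direction, Igfbp1 was -0.94 at 6 h beside 2.54 at 2 h, and Lpin1 -1.05 beside 2.02. Sdf2l1 and Manf, whose falls at 2 h were not called without the array labelled untreated KO replicate 2, differed by 0.34 and 0.41 at 6 h (adjusted p = 0.692 and 0.336). Cyp7a1 differed by -2.82 and Keg1 by -3.60 at 6 h. Nr4a1, Jun and Junb stood 1.18, 1.87 and 1.54 above untreated at 6 h beside 6.41, 5.07 and 4.03 at 2 h.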

How the data were processed

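Total RNA of liver was measured on Affymetrix Mouse Gene 1.1 ST arrays, 1 array for each of the 12 samples. Per the submitters' processing notes, the authors processed the arrays with RMA in Affymetrix Expression Console, whose version they do not state. What they deposited are linear, RMA-normalized intensities, and log2 was taken here with no offset. Groups came from the labels. Symbols came from the platform annotation: 21218 of 35556 probe sets carried 1 symbol, 1881 several and 12457 none, and only the first were used.

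Genes with a mean log2 of at least 5 over the 12 arrays were fitted in limma 3.58.1 under R 4.3.3, by lmFit and eBayes with no variance trend, with a mean for each of 6 groups. The residual degrees of freedom were 6 and the prior ones 4.33. P-values are two-sided, adjusted over all 17052 genes per comparison by the Benjamini-Hochberg method, and called genes have an adjusted p under 0.05. Of 1250 genes with more than 1 probe set 77 are named or listed, and 0 of these had another probe set called in the opposite direction.

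The 39 pathway and 11 marker lists hold 1040 symbols, of which 927 were tested, 4 of them matched by a RefSeq synonym. The comparison, the lists and their members were chosen with earlier results of these data known, so list counts are descriptions and carry no test. Named genes are Pml, the 15 largest rises and the 15 largest falls without overlap, called genes of the difference between genotypes, and up to 8 members of each list with the smallest p, with members that did not pass added where a list is accounted for. Predicted genes and microRNAs were counted and not named, which passed over 1 rise and 1 fall.

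Alternatives were to drop the filter or raise it to a mean log2 of at least 7, to quantile normalize or median centre the arrays, to average the probe sets of a gene or test each one, to add 16 before taking log2, to fit a robust variance trend, to fit only the compared groups, to block on the replicate number, and to leave out each array in turn. With an array left out the lone array of its group is assumed to vary like the other groups. Promoter sequences are those of RefSeq (GRCm38.p6), 250 bases before the start of 32851 transcripts of 27025 genes.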

Additional observations from a re-analysis of the deposited data

Results flagged for a closer look

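The 2 h step differed between genotypes for 5 genes, by limma's test of the difference itself. The KO step minus the wt step was 3.41 ± 0.33 for Arrdc3 and 1.77 ± 0.22 for Id2, both more positive in KO liver. It was -3.27 ± 0.24 for Cetn4, -2.52 ± 0.28 for Sftpa1 and -2.07 ± 0.19 for Col12a1, all more negative in KO liver. For Cetn4 a second probe set gave -0.50, which did not pass (adjusted p = 0.269). The cause of these differences was not tested.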

How the results depend on the processing

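The number of genes called between KO 2 h and untreated KO was within 1.5 times of 5353 under every setting tried that kept all arrays. Without 1 array it was 2935 to 4264, of which 981 to 1440 were higher and 1954 to 2824 lower, and the fewest came without the array labelled untreated KO replicate 2. Median centring turned the split to 3759 higher and 2068 lower, while after quantile normalization 44.6% of calls were higher. The difference between genotypes had 5 called genes, 1 with a mean log2 of at least 7, 8 with log2 of the value plus 16, 8 with a variance trend, 23 in the compared groups only and 2 to 33 without 1 array. Pml differed by -0.66, past the threshold, without untreated KO replicate 1 and by 0.21 without the array labelled untreated KO replicate 2.

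The labels tie samples of the same number only by that number. Across genes, the deviations of same-numbered arrays from their group means correlated at -0.134 to 0.185 over 15 pairs of groups. Whether such samples shared a litter, day or batch was not tested. With the replicate block 5394 genes were called, 1826 higher and 3568 lower, and the difference between genotypes had 4.

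Of 231 named genes 34 lost their call without 1 array and 16 in another setting; 0 called genes changed sign. Shmt2, named above as a fall, is not counted among the 231. Genes not called in either fit that changed sign were Idi1 (0.09), Psmb5 (0.108), Psmb6 (0.106) and Col12a1 (0.005) after median centring. After quantile normalization the gene was B2m (-0.04). Others spanned 0 when 1 array was left out: B2m from -0.018 to 0.113, Cyp51 from -0.298 to 0.486, Dnajb6 from -0.065 to 0.226, H2-Aa from -0.542 to 0.966, Hspa5 from -0.087 to 0.212, Id2 from -0.234 to 0.269, Idi1 from -0.465 to 0.3, Msmo1 from -0.248 to 0.266, Psmb6 from -0.157 to 0.024 and S100a9 from -0.007 to 0.774. The H2-Aa call at its highest value is given above. The cause of these changes was not tested.

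With 2 arrays a group, precision is limited by their number, and nothing in the labels says that replicates were separate animals. No measure of background per array was used here, so low intensities carry no bound.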

Other observations

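Heme and iron genes in Pml KO liver at 2 h counted 3 higher and 10 lower of 27 (median -0.25), with 6 lower without the array labelled untreated KO replicate 2, KO 2 h replicate 2 or untreated KO replicate 1, and 6 after median centring. Of the 6 enzymes of heme synthesis past the first step 3 fell, Ppox from 8.48 and 8.35 to 6.97 and 7.17 (-1.34 ± 0.15, adjusted p = 0.000327), Alad by 0.73 and Urod by 0.49. Uros, Cpox and Fech did not pass, at -0.31, 0.20 and -0.25, Uros being called with a replicate block (adjusted p = 0.0466). Hmox1, which degrades heme, rose by 3.82 ± 0.24. Hamp2, a hepcidin gene, fell by 1.18 ± 0.26 with no call without the array labelled untreated KO replicate 2 (adjusted p = 0.061). Hepcidin genes are near-identical and may share signal. Of 24 coagulation and fibrinolysis genes 7 fell and 2 rose, around a median of -0.14 that turned to 0.03 after median centring. The rises were 0 without untreated KO replicate 1 or with KO 2 h replicate 2 left out, and 1 without the array labelled untreated KO replicate 2. Serpind1, heparin cofactor II made by hepatocytes, fell by 0.70.

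Targets of BMP, TGF-beta and YAP signalling counted 7 higher and 3 lower of 24, 5 and 3 without the array labelled untreated KO replicate 2. Tgif1, a corepressor of SMAD proteins, measured 8.40 and 8.50 untreated and 10.37 and 10.06 at 2 h, a rise of 1.77 ± 0.28 (adjusted p = 0.0015). Bmp2, a ligand, fell by 0.78 ± 0.10, and Lats2 and Amotl2, which restrain YAP, rose by 0.72 and 0.75. Of the nuclear receptors 11.5% were called higher and 30.8% lower, beside 10.6% and 20.8% of all genes. Nuclear receptors counted 3 higher and 8 lower of 26; the falls, Nr2f2 among them (-0.95), were 5 without either untreated KO array and 4 after either scaling, and the rises were 0 without KO 2 h replicate 1, 1 with any other single array left out and 6 after median centring. The clock list had 3 of 15 members higher (Ciart, Per1 and Bhlhe41, a repressor, at 5.35, 1.44 and 1.11) and 0 lower, with 5 higher without KO 2 h replicate 2 and 2 lower without KO 2 h replicate 1. Bhlhe41 and Amotl2 were not called without the array labelled untreated KO replicate 2 (adjusted p = 0.0674 and 0.0702), nor Amotl2 without KO 2 h replicate 1 (0.0896). The sources used here do not give the hour of sacrifice. In the hypoxia and glycolysis list 4 of 24 rose and 3 fell, Adm, a vasodilator peptide, by 1.35 ± 0.28 upward, with 8 rises after median centring. Of 14 EGF receptor genes 2 rose and 1 fell, but 4 rose and 0 fell without KO 2 h replicate 1 and after either scaling, and 1 rose with any other single array left out.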
